A study of Homo sapiens with 8 samples.

Results

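Among the 63129 genes of the RNA-seq table from LP-1 cells, 10 were examined as the HIF pathway and its targets outside glycolysis. HIF1A, EGLN1 and EGLN3 belong to the oxygen sensing machinery, and BNIP3, BNIP3L, KDM3A, NDRG1, DDIT4, FAM162A and VEGFA are target genes that are widely used as a readout of hypoxia. They were found by their gene symbols, and they had been chosen by their RPKM and fold changes with SGC-CBP30 and CPI203 in these same libraries. The levels and fold changes of the 10 genes are therefore a description, given with standard errors and without p-values.

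LP-1 cells are an established line derived from human myeloma. They were treated for 6 hr in 2 experiments, each of which holds 2 biological replicates with compound and 2 with DMSO, the solvent. The first experiment used 2.5 μM SGC-CBP30, an inhibitor of the bromodomains of the related acetyltransferases CBP and EP300, and the second used 250 nM CPI203, an inhibitor of the bromodomains of the BET proteins. Each compound has its own DMSO libraries, which were assigned by the naming series of the libraries. The labels list no genetic change, no hypoxic culture and no inactive control compound, and they give a single serum-containing medium, IMDM, for LP-1 cells.

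HIF is a transcription factor made of an oxygen-regulated alpha subunit, such as the product of HIF1A, and the stable partner ARNT. In the presence of oxygen, prolyl hydroxylases of the EGLN family mark the alpha subunit for ubiquitination by the VHL complex, so that the amount of HIF is set mainly at the level of protein. CBP and EP300 are the coactivators that bind the activation domain of the alpha subunit, and the asparaginyl hydroxylase HIF1AN and the small protein CITED2 both limit this contact. Protein levels were not analysed here.

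The deposited unit is RPKM, reads scaled to gene length and to the mapped reads of the library, so that levels of different genes can be set side by side. Depth was estimated from the steps between low values of single-exon genes at 26100000 to 50100000 reads per library, with the SGC-CBP30 libraries deeper, at 46900000 and 50100000 reads, than their DMSO libraries at 34100000 and 34400000. All 8 plasma cell markers examined averaged 1 RPKM or more, and their summed level was 1224 to 1273 RPKM in the DMSO and 904 to 931 RPKM in the SGC-CBP30 libraries of the first experiment, and 1318 to 1332 RPKM in the DMSO and 828 to 842 RPKM in the CPI203 libraries of the second. Not every plasma cell marker followed the sum. SDC1 averaged 45.5 RPKM under DMSO versus 50.2 RPKM under SGC-CBP30, and PRDM1 averaged 52.9 RPKM under DMSO versus 68.2 RPKM under CPI203. All other plasma cell markers averaged lower with the respective compound. The summed levels of B cell, myeloid, epithelial and fibroblast markers stayed between 0 and 0.519 RPKM in each library. Those of 3 T cell markers were 0.0338 to 0.0890 RPKM in the first experiment and 0.830 to 1.13 RPKM in the second, with CD3D at 0 in the first. The part of these marker differences in the values of the HIF genes was not tested.

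Of the 10 genes, 9 averaged 1 RPKM or more over the 8 libraries and entered a limma fit over all 14732 genes that passed this filter, on the scale of log2(RPKM + 0.1). A gene was called at a Benjamini-Hochberg adjusted p under 0.05 with a change of at least 1.5-fold. SGC-CBP30 was accompanied by calls for 5 of the 9, with BNIP3, EGLN1, KDM3A and FAM162A higher and NDRG1 lower, against a background of 7.26% of all genes tested (3.47% higher and 3.79% lower). CPI203 was accompanied by calls for 3 of the 9, with KDM3A, EGLN1 and BNIP3L higher, against a background of 27.8% (13.4% higher and 14.4% lower). Nothing is read from these shares, because the genes were picked with these contrasts known. The median log2 fold change of the 9 genes was 0.48 with SGC-CBP30 and 0.17 with CPI203, whereas that of all genes was 0.07 and −0.02, respectively.

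The choice of controls bears on these calls. When all 4 DMSO libraries served as controls for both compounds, BNIP3 and KDM3A were the 2 genes of the 9 still called for SGC-CBP30, and for CPI203 there were 5, namely KDM3A, EGLN1 and BNIP3L as higher and DDIT4 and VEGFA as lower. In bulk RNA a change in the share of cells that express a gene and a change in the RNA per cell cannot be told apart.

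Promoters of the genes that were called higher with SGC-CBP30 are shown because they can be searched for the core of the hypoxia response element, to which HIF binds. RefSeq promoter sequences of the build GRCh38.p14 were matched for 7 of the 10 genes, with 9 entries. The letters ACGTG or GCGTG were searched on both strands of the 250 bases before the start site, and overlapping matches were counted separately, so that the palindrome CACGTG counts on each strand. They run 5′ to 3′ on the strand of the gene, with matches on either strand in capitals.
BNIP3, chr10:131981924-131982173, minus strand: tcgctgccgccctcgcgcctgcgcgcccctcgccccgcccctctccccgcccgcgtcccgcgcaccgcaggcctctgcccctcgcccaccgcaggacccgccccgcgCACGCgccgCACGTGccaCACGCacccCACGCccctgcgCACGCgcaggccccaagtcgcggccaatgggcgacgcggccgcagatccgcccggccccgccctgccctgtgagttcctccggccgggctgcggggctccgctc
FAM162A, chr3:122383932-122384181, plus strand: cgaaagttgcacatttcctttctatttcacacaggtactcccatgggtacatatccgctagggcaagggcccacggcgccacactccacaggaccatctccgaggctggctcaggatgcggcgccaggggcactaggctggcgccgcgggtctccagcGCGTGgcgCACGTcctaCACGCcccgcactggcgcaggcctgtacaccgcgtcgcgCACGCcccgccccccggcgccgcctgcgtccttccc
EGLN1, chr1:231422288-231422537, minus strand: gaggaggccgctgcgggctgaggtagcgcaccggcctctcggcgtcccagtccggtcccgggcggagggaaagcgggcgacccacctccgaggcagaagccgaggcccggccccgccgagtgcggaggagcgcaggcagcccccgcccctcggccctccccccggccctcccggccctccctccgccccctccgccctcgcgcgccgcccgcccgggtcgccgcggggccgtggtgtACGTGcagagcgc
KDM3A, chr2:86441121-86441370, plus strand: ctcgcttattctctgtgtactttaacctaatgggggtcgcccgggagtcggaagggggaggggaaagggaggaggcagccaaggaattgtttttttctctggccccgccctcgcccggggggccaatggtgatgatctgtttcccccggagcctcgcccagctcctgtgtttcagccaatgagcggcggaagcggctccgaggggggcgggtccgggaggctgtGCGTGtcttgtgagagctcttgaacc

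Matches were most frequent in the promoter of BNIP3, with 6, followed by FAM162A with 4 and DDIT4 with 3. No background was computed for the number of matches in a promoter, so nothing is read from this order. BNIP3L, NDRG1 and VEGFA had no matched entry. EGLN1 held 1 match close to the start site, both entries of KDM3A shared 1, 1 of the 2 entries of HIF1A held 1, and EGLN3 held 0. At least 1 match is common, since 43.2% of all 35116 promoters of this length held one, 18.5% held ACGTG and 32.2% held GCGTG. The longer CACGTG, which is also the E-box letters bound by MYC family proteins, was present once in BNIP3 and in 6.34% of all promoters. A match describes the letters of the window and not a site of binding.

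**Figure D1:**
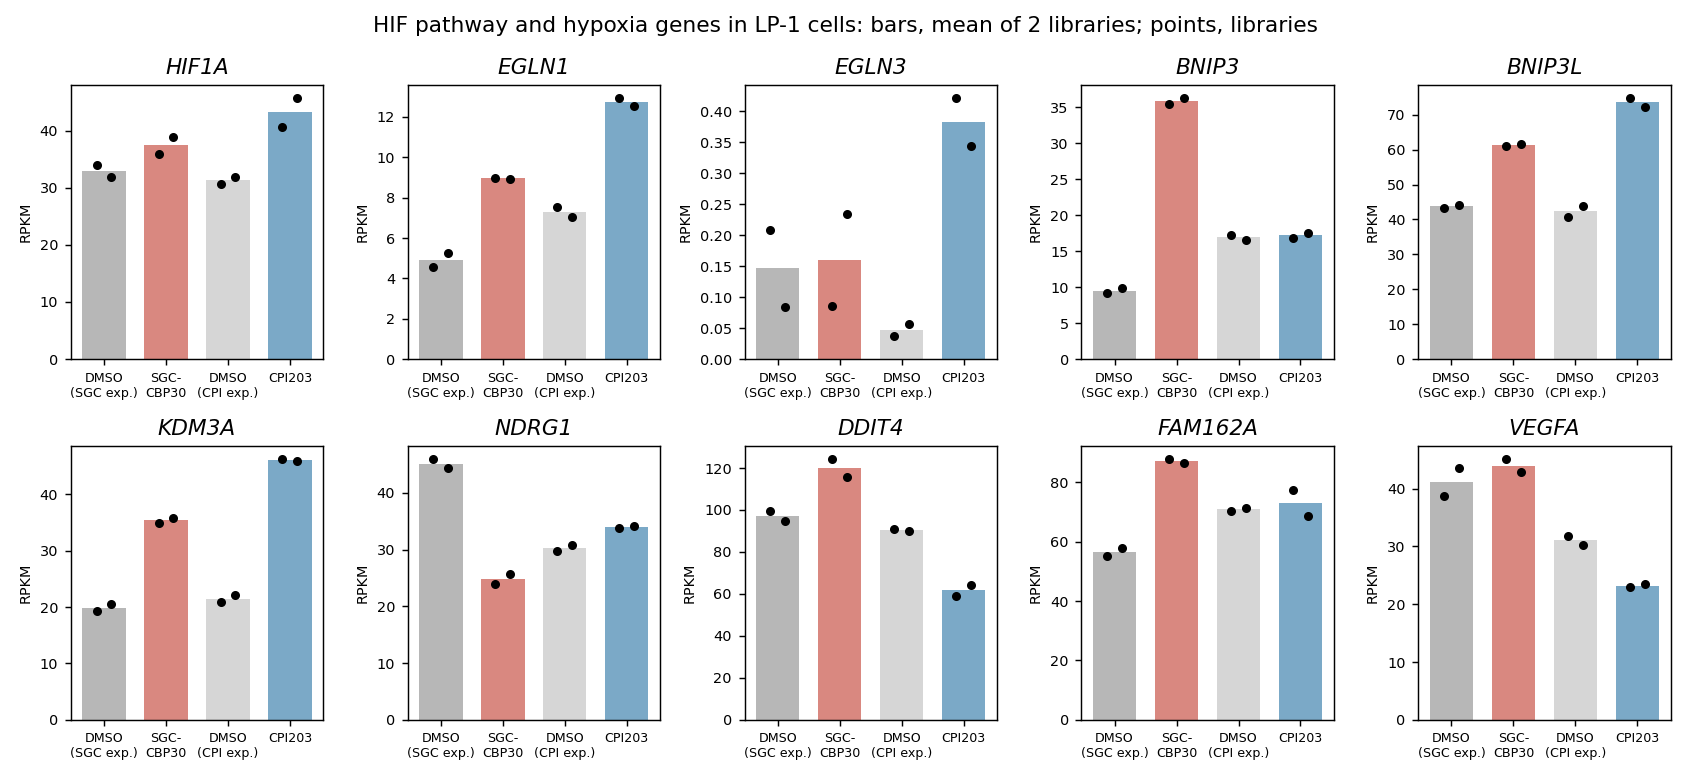
Level in RPKM of each of the 10 genes in the 4 groups, with bars for the mean of 2 libraries and points for the libraries. BNIP3 stands far above its DMSO libraries with SGC-CBP30 at 35.4 and 36.3 RPKM and lies among its DMSO libraries with CPI203, whereas EGLN1, BNIP3L and KDM3A are above DMSO with both compounds.

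HIF1A encodes the oxygen-regulated subunit and lies on chromosome 14 at 62162230 to 62214976 of hg19. Its level was 33.9 and 31.8 RPKM under DMSO versus 35.9 and 38.9 RPKM under SGC-CBP30, and 30.7 and 31.9 RPKM under DMSO versus 40.7 and 45.7 RPKM under CPI203. Libraries with compound were above those with DMSO in both experiments, without overlap. The log2 fold change was 0.19 ± 0.07 (standard error, as for all fold changes that follow) with SGC-CBP30 and 0.46 ± 0.07 with CPI203, both under 1.5-fold and not called.

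EGLN1 encodes the prolyl hydroxylase PHD2, the main oxygen sensor that hydroxylates the alpha subunit, and is itself a HIF target. The gene lies on chromosome 1 at 231499496 to 231560790. Its level was 4.55 and 5.25 RPKM under DMSO versus 8.98 and 8.93 RPKM under SGC-CBP30, and 7.55 and 7.03 RPKM under DMSO versus 12.9 and 12.5 RPKM under CPI203. Both compounds gave higher values than their DMSO, but the DMSO libraries of the second experiment were above those of the first. The log2 fold changes of 0.86 ± 0.09 and 0.80 ± 0.09 differed by only 0.06 ± 0.12. Against all 4 DMSO libraries the change with SGC-CBP30 was 0.58 and was no longer called, while that with CPI203 was 1.08 and was called. The difference between the compound effects was then −0.50, which was not called, so the near-equal changes hold with separate controls.

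EGLN3 encodes PHD3, a second prolyl hydroxylase that is known as a strongly induced HIF target. Here it was almost silent, at 0.208 and 0.0846 RPKM under DMSO versus 0.0864 and 0.234 RPKM under SGC-CBP30, which overlap. In the CPI203 experiment it was at 0.0373 and 0.0567 RPKM under DMSO versus 0.421 and 0.343 RPKM with compound, so that the CPI203 libraries were the highest of the 8. It did not pass the filter of 1 RPKM and is not among the 9 genes of the fit. Without the filter all 10 genes were fitted and EGLN3 was called higher with CPI203, which made 4 genes called with this compound. In the files its locus on chromosome 14 spans 538545 bases and also covers SPTSSA, at a mean of 15.0 RPKM.

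BNIP3 encodes a receptor of the outer mitochondrial membrane that drives mitophagy, the removal of mitochondria, and it had the largest fold change of the 9 genes with SGC-CBP30. It lies on chromosome 10 at 133781577 to 133795435. Its level was 9.17 and 9.82 RPKM under DMSO versus 35.4 and 36.3 RPKM under SGC-CBP30, and 17.2 and 16.6 RPKM under DMSO versus 16.9 and 17.5 RPKM under CPI203. SGC-CBP30 libraries were 3.75-fold above their DMSO, at a log2 fold change of 1.91 ± 0.06, whereas the CPI203 libraries overlapped their DMSO at 0.02 ± 0.06. The difference between the compound effects was 1.88 ± 0.08. The DMSO libraries themselves differed, those of the second experiment being higher by 0.82 ± 0.06 on the log2 scale. With all 4 as controls the change with SGC-CBP30 was 1.49 and that with CPI203 was 0.44, which was not called. The difference between the compound effects was then 1.06 and was still called.

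Reads of BNIP3 can be shared with processed copies elsewhere in the genome. The pseudogene BNIP3P1 on chromosome 14 was listed at 13.4 and 13.2 RPKM under DMSO versus 39.8 and 40.8 RPKM under SGC-CBP30, and at 20.3 and 18.0 RPKM under DMSO versus 21.5 and 22.2 RPKM under CPI203. Its values followed those of BNIP3 and were higher than those of the gene itself in each library, and how the authors' counting divides such reads was not given in the sources used here. The sum of BNIP3 and its 3 listed copies was 22.8 RPKM under DMSO versus 76.2 RPKM under SGC-CBP30, a log2 ratio of 1.74, and 36.1 RPKM under DMSO versus 39.1 RPKM under CPI203, a log2 ratio of 0.12. The contrast between the compounds is present in the sum as well, but the sum contains BNIP3 itself and is not an independent check. The level of BNIP3 alone is uncertain.

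BNIP3L, also called NIX, encodes the second mitophagy receptor of the family and lies on chromosome 8 at 26240413 to 26363152. Its level was 43.3 and 44.2 RPKM under DMSO versus 61.0 and 61.5 RPKM under SGC-CBP30, and 40.8 and 43.9 RPKM under DMSO versus 74.8 and 72.3 RPKM under CPI203. All libraries with compound were above all with DMSO. The log2 fold change was 0.48 ± 0.04 with SGC-CBP30, just under 1.5-fold, and 0.80 ± 0.04 with CPI203, which was called. The pair of mitophagy receptors thus differed in pattern, with the change of BNIP3 seen with SGC-CBP30 and that of BNIP3L seen with both compounds.

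FAM162A encodes a mitochondrial protein that is induced by hypoxia and lies on chromosome 3 at 122103022 to 122131181. Its level was 55.2 and 57.7 RPKM under DMSO versus 88.0 and 86.6 RPKM under SGC-CBP30, and 70.4 and 71.4 RPKM under DMSO versus 77.6 and 68.8 RPKM under CPI203. As for BNIP3, SGC-CBP30 libraries were the highest and the CPI203 libraries overlapped their DMSO. The log2 fold change was 0.63 ± 0.05 with SGC-CBP30 and 0.04 ± 0.05 with CPI203. The first lies just past 1.5-fold and was 0.55 after scaling by the median and 0.46 against all 4 DMSO libraries, where it was not called. BNIP3L, just outside the threshold, and FAM162A, just inside it, are therefore close in size of change.

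KDM3A encodes an oxygen-dependent demethylase of histone H3 lysine 9 and lies on chromosome 2 at 86667769 to 86719839. Its level was 19.3 and 20.5 RPKM under DMSO versus 35.0 and 35.9 RPKM under SGC-CBP30, and 20.8 and 22.1 RPKM under DMSO versus 46.3 and 45.9 RPKM under CPI203. Its DMSO libraries were close to each other in the 2 experiments and both compounds were far above them. The log2 fold changes of 0.83 ± 0.05 and 1.10 ± 0.05 were called in each of the 17 alternative fits. Together with EGLN1, KDM3A was called higher with both compounds, which held for 230 genes or 1.56% of those tested.

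NDRG1 encodes a cytoplasmic stress protein with roles in differentiation and lipid handling, and its direction with SGC-CBP30 was opposite to that of the other called genes. It lies on chromosome 8 at 134249413 to 134314265. Its level was 46.0 and 44.3 RPKM under DMSO versus 23.9 and 25.6 RPKM under SGC-CBP30, and 29.7 and 30.8 RPKM under DMSO versus 33.9 and 34.2 RPKM under CPI203. It was below DMSO with SGC-CBP30 and above it with CPI203, with no overlap in either experiment. The log2 fold changes were −0.87 ± 0.05 and 0.17 ± 0.05, respectively, and differed by −1.03 ± 0.07. DMSO libraries of the second experiment lay between those of the first and the SGC-CBP30 libraries. Against all 4 DMSO libraries the values were −0.58 with SGC-CBP30, which was not called, and −0.12 with CPI203, where the sign turned.

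DDIT4, also called REDD1, encodes an inhibitor of the growth kinase mTORC1 and was the most abundant of the 10 transcripts in the DMSO libraries. It lies on chromosome 10 at 74033677 to 74035794. Its level was 99.6 and 94.9 RPKM under DMSO versus 124 and 116 RPKM under SGC-CBP30, and 90.9 and 89.8 RPKM under DMSO versus 59.1 and 64.3 RPKM under CPI203. It was above DMSO with SGC-CBP30 and below it with CPI203, with no overlap in either experiment. The log2 fold changes of 0.30 ± 0.05 and −0.55 ± 0.05 were each under 1.5-fold, but the difference between them was 0.85 ± 0.07. The change with CPI203 passed the threshold in 2 alternatives, at −0.60 against all 4 DMSO libraries and at −0.61 without replicate 2 of CPI203.

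VEGFA encodes the secreted ligand that stimulates blood vessel growth and lies on chromosome 6 at 43737920 to 43754224. Its level was 38.8 and 43.6 RPKM under DMSO versus 45.2 and 42.8 RPKM under SGC-CBP30, which overlap, and 31.8 and 30.3 RPKM under DMSO versus 23.0 and 23.5 RPKM under CPI203, which do not. The log2 fold change was 0.10 ± 0.06 with SGC-CBP30 and −0.42 ± 0.06 with CPI203, neither of which was called. Because the DMSO libraries of the second experiment were lower than those of the first, the value with CPI203 was −0.62 and was called when all 4 served as controls. VEGFA thus overlapped its DMSO with SGC-CBP30 and was below it with CPI203.

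**Figure D2:**
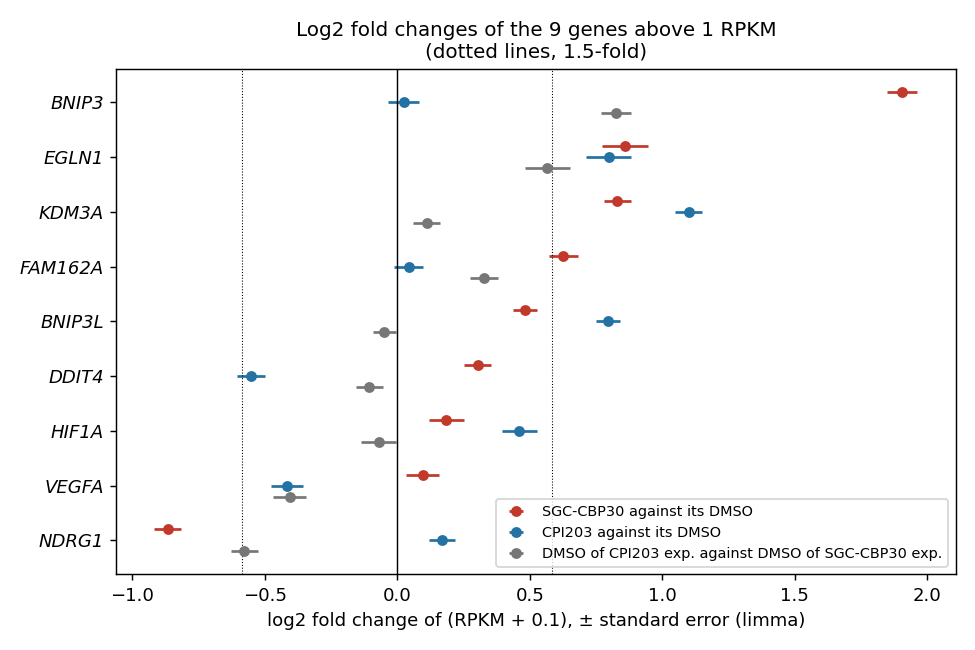
Log2 fold change of the 9 genes that passed the filter, with bars for the standard error of the limma fit and dotted lines at 1.5-fold. BNIP3 reaches 1.91 with SGC-CBP30 and 0.02 with CPI203, NDRG1 is at −0.87 with SGC-CBP30, and the grey points show that the DMSO libraries of the 2 experiments also differ, by 0.82 for BNIP3.

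Other annotated genes overlap some of these loci, namely RP11-442H21.2 at DDIT4 with a mean of 5.82 RPKM, RP1-261G23.7 at VEGFA with 3.36 RPKM, WDR5B at FAM162A with 1.97 RPKM, PNMA2 and SDAD1P1 at BNIP3L with at most 6.70 RPKM, and RP11-618G20.1 at HIF1A with 1.15 RPKM. All are low next to the gene they overlap, but without knowledge of strand in the counting their reads cannot be told apart.

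The 10 genes thus did not move as 1 group. Both libraries with SGC-CBP30 were above both DMSO libraries for 7 of the 9 genes tested and below for 1, where 45.9% and 27.2% of all genes tested were so placed. With CPI203, 5 of the 9 were above and 2 below, where 39.2% and 41.7% of all genes were. The difference between the compound effects was called for 3 of the 9, BNIP3 and DDIT4 with the higher value for SGC-CBP30 and NDRG1 with the lower, against a background of 24.5% (14.8% higher and 9.68% lower). With all 4 DMSO libraries as controls the difference for NDRG1 was −0.46 and not called, and that for VEGFA, 0.51 ± 0.09 otherwise, was 0.92 and called. With those pooled controls the difference for FAM162A was 0.26 and not called. With separate controls FAM162A missed this call narrowly at 0.58 ± 0.08. It was called, at up to 0.67, without replicate 2 of the first DMSO or of SGC-CBP30 or replicate 1 of the second DMSO or of CPI203. VEGFA was likewise called, at 0.60, without replicate 2 of the first DMSO. KDM3A, BNIP3L and HIF1A were a little higher with CPI203, at differences of −0.27 ± 0.07, −0.31 ± 0.06 and −0.28 ± 0.09. Doses of the compounds differ, so these differences compare the treatments as given and not the compounds at a matched dose.

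Levels of the genes in the DMSO libraries were a further source of variation. The DMSO libraries of the second experiment were above those of the first for 4 of the 9 genes and below for 3, where 36.2% and 35.1% of all genes tested were. BNIP3 was the 1 gene of the 9 called in this contrast, against a background of 7.84% (3.93% higher and 3.91% lower). EGLN1 at 0.57 ± 0.09 and NDRG1 at −0.58 ± 0.05 lay just under the threshold and were called, at up to 0.67 and −0.60, without replicate 2 of either DMSO group. For BNIP3, EGLN1, FAM162A, KDM3A and NDRG1 the DMSO libraries of the second experiment lay between the DMSO and the SGC-CBP30 libraries of the first. This contrast shares its libraries with both compound contrasts and is not independent of them. The experiment and the library naming series cannot be told apart.

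Profiles over the 8 libraries fell into a few shapes. BNIP3L and KDM3A were nearly parallel at a Pearson r of 0.99, and HIF1A with BNIP3L at 0.931 and EGLN1 with KDM3A at 0.929 were close to them. BNIP3 followed FAM162A at 0.961 and mirrored NDRG1 at −0.958, and DDIT4 followed VEGFA at 0.939. These values describe n = 8 libraries of log2(RPKM + 0.1), which share treatments and experiments, and they carry no p-value.

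**Figure D3:**
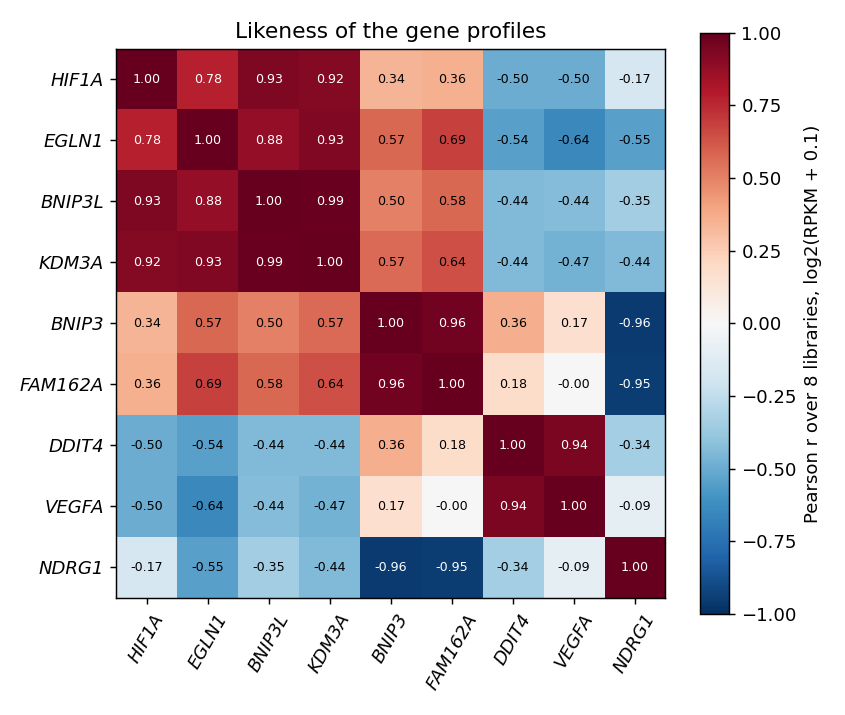
Pearson r between the profiles of the 9 genes over 8 libraries, with red for parallel and blue for opposite profiles. HIF1A, EGLN1, BNIP3L and KDM3A form a block of high values, BNIP3 and FAM162A another at 0.961, DDIT4 and VEGFA another at 0.939, and NDRG1 is opposite to BNIP3 at −0.958.

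Among the 8290 other genes with a symbol and a mean of at least 10 RPKM, the profile most like that of BNIP3 was PGK1, a glycolytic enzyme and HIF target, at r = 0.99, followed by the pseudogene BNIP3P1 at 0.989. For KDM3A it was the mitotic kinase TTK at 0.994, for BNIP3L it was PDE6D at 0.997, for EGLN1 it was TWF1 at 0.997 and for HIF1A it was MPHOSPH9 at 0.989. For FAM162A it was POGLUT1 at 0.984, for NDRG1 the proteasome activator subunit PSME1 at 0.989, for DDIT4 it was VWA9 at 0.997 and for VEGFA the aminoacyl tRNA synthetase CARS at 0.998. With 8 libraries and this many genes, such values describe a resemblance of profiles and nothing more.

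The rest of the pathway was followed in a list of 17 HIF regulators, of which 14 passed the filter and EPAS1, HIF3A and ARNT2 did not. Both this list and the list of targets that comes after it were drawn up with results of these libraries known. The p-values of their genes therefore set a difference against the replicate spread shared by the 4 groups, and they are not independent evidence. With SGC-CBP30, 0 of the 14 were called by limma, against a background of 7.26% of all genes tested, although 6 had an adjusted p under 0.05. Their log2 fold changes ran from −0.43 to 0.35 with a median of −0.02. EP300 measured 13.1 ± 1.26 RPKM (SD, n = 2) under DMSO versus 16.2 ± 0.776 RPKM under SGC-CBP30, and CREBBP was at 20.8 ± 1.46 and 21.6 ± 0.400 RPKM. Transcripts of the proteins that SGC-CBP30 binds therefore differed from DMSO by 0.30 ± 0.08 and 0.06 ± 0.08 on the log2 scale, and neither was called. The limma adjusted p was 0.0142 for EP300 and 0.615 for CREBBP. With CPI203 the log2 fold changes were 0.57 ± 0.08 for EP300, just under 1.5-fold, and 0.165 ± 0.08 for CREBBP, neither of which was called.

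With CPI203, 2 of the 14 regulators, or 14.3%, rose and 0 fell, which is not above the background of 27.8% of all genes called. CITED2, the inhibitor that competes with HIF for CBP and EP300, rose from 14.8 ± 0.835 to 34.4 ± 0.398 RPKM (SD, n = 2), a log2 fold change of 1.21 ± 0.06 with an adjusted p of 2.25e-07 in limma. HIF1AN, the asparaginyl hydroxylase that blocks the same contact, rose from 16.3 ± 0.527 to 26.8 ± 0.657 RPKM, by 0.71 ± 0.06 (limma adjusted p = 3.08e-06). With SGC-CBP30, CITED2 was at 12.4 ± 0.425 RPKM against 16.7 ± 0.928 RPKM in DMSO, and the compound effects on CITED2 differed by −1.64 ± 0.09 (limma adjusted p = 1.12e-06). The locus of HIF1AN overlaps NDUFB8 at a mean of 152 RPKM, and whether the counting used strand was not given in the sources used here.

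A second list held 44 other HIF targets outside glycolysis, of which 28 passed the filter, 15 were under 1 RPKM and 1, the transferrin receptor gene TFRC, had no value in the SGC-CBP30 libraries. With SGC-CBP30, 6 of the 28 rose, 4 fell and 18 were not called, so that 35.7% were called against a background of 7.26% (3.47% higher and 3.79% lower). With CPI203, 5 rose, 4 fell and 19 were not called, so that 32.1% were called, near the background of 27.8% (13.4% higher and 14.4% lower). Nothing is read from the shares of this list or of the regulators, because both were drawn up with results of these libraries known. The medians were 0.17 with SGC-CBP30 and −0.01 with CPI203. Calls on this list went in both directions with each compound. Those of the 9 genes above did so with SGC-CBP30, whereas with CPI203 3 were called higher and 0 lower. In the DMSO contrast, 8 of the 28, or 28.6%, were called, 4 in each direction, against a background of 7.84%.

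HMOX1, which encodes the haem-degrading enzyme heme oxygenase 1, rose most with SGC-CBP30, from 30.5 ± 2.21 to 102 ± 6.81 RPKM (SD, n = 2), a log2 fold change of 1.75 ± 0.07 (limma adjusted p = 3.72e-07). With CPI203 it was at 18.4 ± 0.205 RPKM under DMSO versus 26.7 ± 1.98 RPKM with compound, which was called, at 0.61, only without replicate 2 of CPI203 among the alternatives tried. The collagen-modifying enzymes P4HA1 and PLOD2 rose by 0.90 ± 0.05 and 0.72 ± 0.06 with SGC-CBP30, whereas P4HA2 fell by 0.62 ± 0.07 and was not called without replicate 2 of DMSO, at −0.54. P4HA1, PLOD2, P4HA2 and AK4 were not called with SGC-CBP30 when all 4 DMSO libraries served as controls. HMOX1 was called under that setting as well, at 2.11.

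IGFBP3, a secreted binder of insulin-like growth factors, fell most with SGC-CBP30, from 22.8 ± 0.112 to 3.18 ± 0.298 RPKM (SD, n = 2), a log2 fold change of −2.80 ± 0.09 (limma adjusted p = 1.36e-07). Its DMSO libraries in the second experiment were at 4.95 ± 0.171 RPKM, close to the SGC-CBP30 libraries, and with all 4 DMSO libraries as controls the change was −1.71 and not called. ANKRD37, a HIF target encoding an ankyrin repeat protein, fell with both compounds, at log2 fold changes of −0.65 ± 0.04 with SGC-CBP30 and −2.53 ± 0.04 with CPI203 (limma adjusted p = 5.19e-06 and 4.97e-10). Its locus overlaps UFSP2 at a mean of 30.5 RPKM.

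CPI203 raised CCNG2, an unconventional cyclin linked to growth arrest, from 2.93 ± 0.399 to 15.6 ± 0.142 RPKM (SD, n = 2), by 2.37 ± 0.17 on the log2 scale (limma adjusted p = 1.29e-06), and CCNG2 also rose with SGC-CBP30 by 0.74 ± 0.17 (limma adjusted p = 0.00644). The latter was 0.46 and not called without replicate 1 of the DMSO libraries. WSB1, a substrate adaptor of a ubiquitin ligase, rose by 0.62 ± 0.06 with SGC-CBP30 and by 1.39 ± 0.06 with CPI203, the first being 0.54 after median scaling and 0.55 without replicate 2 of SGC-CBP30, neither of which was called. INSIG2, a regulator of sterol synthesis, rose with CPI203 by 0.69 ± 0.08. STC2, a secreted glycoprotein, fell with CPI203 from 9.39 ± 1.24 to 1.06 ± 0.0927 RPKM, a log2 fold change of −3.02 ± 0.11 (limma adjusted p = 2.09e-08). TGFA, an EGF receptor ligand, fell at −0.75 ± 0.15 and was −0.53 and not called with a pseudocount of 1.

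Some targets moved in opposite directions with the compounds. AK4, a mitochondrial adenylate kinase, was at 4.18 ± 0.190 RPKM under DMSO versus 7.78 ± 0.313 RPKM under SGC-CBP30, and at 6.74 ± 0.0305 RPKM under DMSO versus 2.18 ± 0.346 RPKM under CPI203 (SD, n = 2). The effects of 0.88 ± 0.11 and −1.59 ± 0.11 differed by 2.47 ± 0.16 (limma adjusted p = 2.76e-06). RORA, a nuclear receptor, showed the reverse order, with −0.73 ± 0.11 for SGC-CBP30 and 0.75 ± 0.11 for CPI203, a difference of −1.48 ± 0.16 (limma adjusted p = 4.78e-05). The difference between the compound effects was called for 39.3% of the 28 targets, 5 with the higher and 6 with the lower value for SGC-CBP30, against a background of 24.5% (14.8% higher and 9.68% lower). For RORA, the fall with SGC-CBP30 was −0.58 and not called without replicate 1 of SGC-CBP30.

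**Figure D4:**
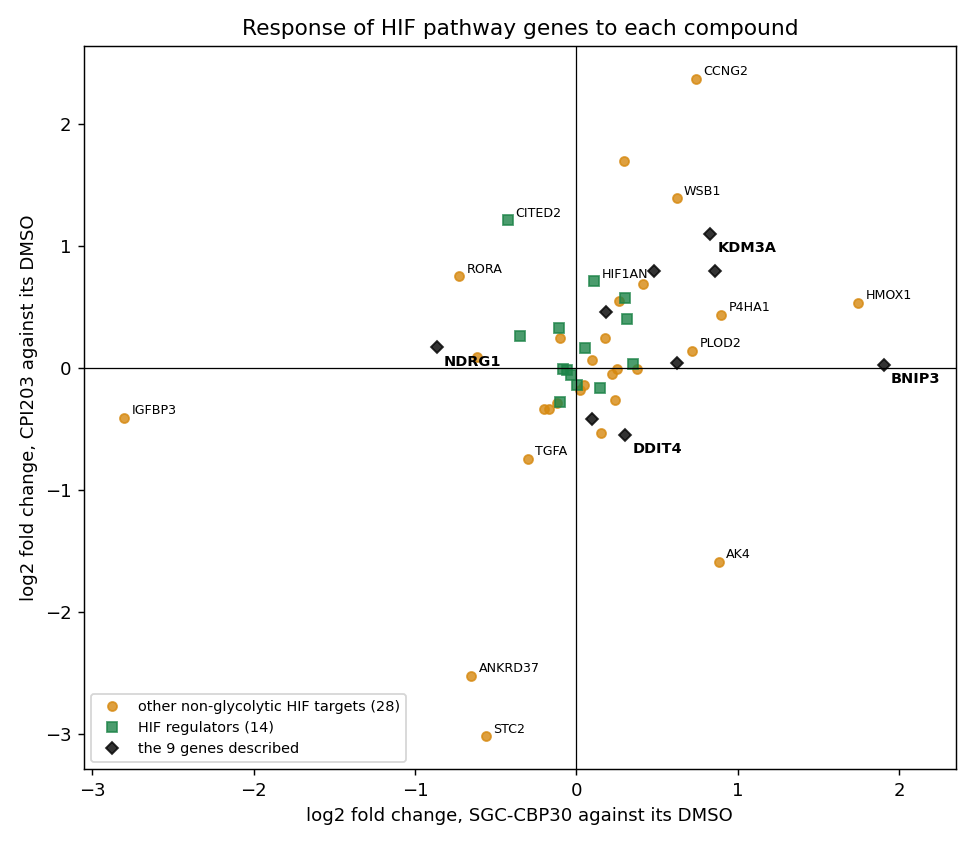
Log2 fold change of log2(RPKM + 0.1) with SGC-CBP30 (horizontal) and with CPI203 (vertical) for the 9 genes (black diamonds), 14 HIF regulators (green squares) and 28 other targets (orange circles). CITED2 and RORA lie at upper left, AK4 at lower right with BNIP3 on the right near 0 on the vertical axis, and KDM3A, WSB1 and CCNG2 at upper right.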

How the data were processed

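LP-1 RNA was sequenced commercially. The authors deposited the result as a table of RPKM, with 1 value per gene and library. The submitters' processing notes name TopHat 1.4.1, Cufflinks and hg19, with no annotation release, and 24 further columns of the table were not used. Gene symbols and positions, which are neither counts nor levels (recorded as other), came from the deposited annotation. The 10 genes and both lists were chosen with earlier results of these data known. Missing values removed 27 genes, and the 14732 genes averaging 1 RPKM or more over 8 libraries were fitted on log2(RPKM + 0.1) with limma 3.58.1 in R 4.3.3 (lmFit, contrasts, eBayes with trend, with 4 residual and 5.48 prior degrees of freedom), and p-values were adjusted by Benjamini-Hochberg over all of them. The smallest two-sided p of an exact permutation test of 2 against 2 libraries is 0.333, so none was used. The pseudocount makes changes of low genes look smaller. The fit was tested on simulated data. Besides the 10 genes, the text names CREBBP, EP300, for each compound at most 6 called genes per list and direction without overlap between groups, and for each of the 9 genes the most similar profile among genes with at least 10 RPKM; other names were chosen after their values were seen. A gene under this rule is not reported here. Depth is an estimate from 4388 single-exon genes, for which 53.5% to 68.7% of low values were whole reads within 0.05, so no count test was run. Other settings tried were quantile normalization, median scaling, a replicate block, both DMSO groups pooled as controls and a separate fit for each experiment. Further ones were no intensity trend, no filter on level, a filter of 5 RPKM in place of 1, a pseudocount of 1 and each library left out. Promoter letters are from RefSeq (GRCh38.p14), and no position was moved between builds. Python 3.11.15, pandas 2.3.3, numpy 2.4.6 and matplotlib 3.10.9 were used.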

Additional observations from a re-analysis of the deposited data

How the results depend on the processing

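Only 2 libraries stand behind each group, and low values such as those of EGLN3 rest on few reads. Calls over all genes with SGC-CBP30 were 1070, and 667 with a pseudocount of 1, 505 with a filter of 5 RPKM and 516 with all 4 DMSO libraries as controls. The filter of 5 RPKM, which tests fewer genes, gave 2590 for CPI203 (4095), 2358 for the difference between compound effects (3609) and 518 for the DMSO contrast (1155). With all 4 DMSO libraries, calls among the 9 genes went from 5 to 2 with SGC-CBP30 and from 3 to 5 with CPI203. Among the 28 targets they went from 10 to 5 with SGC-CBP30. Without the filter, 1 HIF regulator (0 before), EPAS1, was called with SGC-CBP30, and 3 regulators (2 before) were called with CPI203. With SGC-CBP30, 47.8% of calls were higher, but 32.5% after median scaling and 32.4% after quantile normalization; for the difference these were 60.5%, 51.8% and 50.2%. Small values changed sign, and with each library left out BNIP3 with CPI203 ranged from −0.0024 to 0.050, FAM162A with CPI203 from −0.043 to 0.13 and CREBBP with SGC-CBP30 from −0.015 to 0.13. Against all 4 DMSO libraries BNIP3 with CPI203 was at 0.44 and FAM162A with CPI203 at 0.21, neither of which was called. NDRG1 was −0.12, CREBBP −0.013 and P4HA2 −0.32 with CPI203 against all 4 DMSO libraries, and CREBBP with SGC-CBP30 was −0.020 after median scaling. For NDRG1, CREBBP and P4HA2 the DMSO libraries of the second experiment were below those of the first. These DMSO differences were −0.58, −0.355 and −0.817 on the log2 scale, so that pooling the DMSO libraries lowers the values with CPI203. Median scaling moved the median of all genes with SGC-CBP30 from 0.07 to −0.0059. Why the DMSO libraries differ was not tested. The authors describe their DMSO controls as paired, and the main fit held no pairing. Deviations of libraries with the same replicate number correlated at −0.096 and 0.0086 in the 2 experiments. No shared replicate deviation was thus visible, which does not settle whether the samples were paired. The replicate block gave 1057, 4120, 3573 and 1067 calls for SGC-CBP30, CPI203, their difference and the DMSO contrast.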

Other observations

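Some pathway genes outside the 14732 tested, EPAS1 and TF for a mean under 1 RPKM and TFRC for missing values, are given here by level, and they were chosen after their values were seen. EPAS1, which encodes the other main HIF alpha subunit, was at 0.142 and 0.221 RPKM under DMSO versus 0.475 and 0.452 RPKM under SGC-CBP30, and at 0.237 and 0.219 RPKM under DMSO versus 1.64 and 1.34 RPKM under CPI203. It was above DMSO in both libraries of each compound, far below HIF1A in level. The transferrin gene TF was at 0.318 and 0.329 RPKM under DMSO versus 0.592 and 0.466 RPKM under SGC-CBP30, and at 0.311 and 0.410 RPKM under DMSO versus 1.27 and 1.06 RPKM under CPI203. TFRC, the transferrin receptor, had no value with SGC-CBP30 and measured 237 and 227 RPKM under DMSO in the first experiment, and 192 and 203 RPKM under DMSO versus 153 and 150 RPKM under CPI203.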
